A study of Mus musculus with 1824 samples.

Results

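The transcripts of 9 genes that mark megakaryocytes and platelets were followed in single cells of mouse chimaeras at embryonic day (E) 7.5 and E8.5. The genes were *Gp1ba*, *Gp1bb*, *Gp9*, *Gp5*, *Itga2b*, *Pf4*, *Ppbp*, *Treml1* and *Plek*, found by their Ensembl identifiers among the 55487 genes of the count table. All 9 were present in the table. The chimaeras were made by injecting *Tet* triple-knockout embryonic stem cells, which lack Tet1, Tet2 and Tet3 and carry an H2B-tdTomato label, into C57BL/6J blastocysts that were transferred to CD1 females. The deposited labels give CD1 as the strain of every cell and do not say which cells descend from the knockout line, so knockout and host cells could not be told apart here. The knockout cells come from a cultured stem cell line. The study describes pooling of chimaeric embryos before sorting, while the labels of some E7.5 plates name single embryos. Which plates held pooled embryos is not given in the labels. Sorted cells were DAPI-negative singlets, and some sorts used antibodies against KDR and CD41. CD41 is the product of *Itga2b*, and the gate of each plate is not given in the labels, so a gate can set the *Itga2b* level of a plate.

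Of 1824 wells on 19 plates, 1649 held a cell with at least 100000 reads and were kept. These were 956 cells on 11 plates at E7.5 and 693 cells on 8 plates at E8.5. The median depth of a plate lay between 224956 and 1699478 reads at E7.5 and between 420157 and 1141636 at E8.5. Levels are given as CPM, read counts scaled to the same total for every cell or plate, and a gene was called detected in a cell with 1 read or more. Apart from the 4 embryo plates at E7.5, the labels name no animal. Cells of one plate are not replicates, so differences between plates carry no test and the 95% intervals (exact Clopper-Pearson for shares of cells, exact Poisson for CPM) cover counting error only. Without molecular identifiers, reads copied by PCR are counted separately, which these intervals do not include. Where no cell had a read, the limit given is the share that 3 cells would make, which is lower than the upper end of the exact interval and limits cells with a read, not cells that express the gene.

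E8.5 plate 5, with 77 cells kept, was set against E8.5 plates 1, 2, 3, 4 and 6, with 440 cells, which are called the other blood plates. Markers fitted that name only in part. Summed erythroid markers reached 156358 CPM on plate 1 and 60080 CPM on plate 2, but 131 CPM on plate 3 and 168 CPM on plate 4. Plates 3 and 4 instead held the most endothelial marker transcripts of these plates, with sums of 6027 and 3080 CPM. Plate 6 had 959 CPM of erythroid, 2084 CPM of endothelial and 1398 CPM of progenitor markers. On plate 5 the sums were 3878 CPM of erythroid, 762 CPM of endothelial, 1655 CPM of progenitor and 1512 CPM of immune markers. The part of these other cell types in the differences below was not tested. Nor could the part of genotype be tested, since the labels do not give it.

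Megakaryocytes are the large blood cells that shed platelets, and in the embryo a first wave of them arises in the yolk sac beside primitive erythroid cells and macrophages. Platelets stick to damaged vessel walls through the von Willebrand factor receptor, which is built from GPIbα, GPIbβ, GPIX and GPV. They bind fibrinogen through the integrin of αIIb, encoded by *Itga2b*, and β3, and they release chemokines from α-granules. GATA1, with its cofactor FOG1, and ETS factors such as FLI1 are known regulators of this programme, and *Itga2b* is also transcribed in early blood progenitors.

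Promoters are shown for 3 genes of the von Willebrand factor receptor, without *Gp1bb*, and for *Pf4*. *Pf4* was the member with the largest difference between plate 5 and the other blood plates. They are shown because the plate 5 cells described further on separate by the blood regulators *Gata1* and *Spi1*. Each line is the 250 bases before the RefSeq start on build GRCm38.p6, 5′ to 3′ on the strand of the gene, and capitals mark GATAA (GATA family) and AGGAAG (ETS family) on either strand, which do not overlap each other.
*Gp1ba*, chr11:70638872-70639121 (+): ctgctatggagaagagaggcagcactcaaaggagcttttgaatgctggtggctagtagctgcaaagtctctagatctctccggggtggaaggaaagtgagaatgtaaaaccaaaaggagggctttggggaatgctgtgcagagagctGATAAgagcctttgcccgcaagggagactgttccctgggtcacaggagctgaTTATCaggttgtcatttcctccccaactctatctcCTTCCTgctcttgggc
*Gp9*, chr6:87777820-87778069 (+): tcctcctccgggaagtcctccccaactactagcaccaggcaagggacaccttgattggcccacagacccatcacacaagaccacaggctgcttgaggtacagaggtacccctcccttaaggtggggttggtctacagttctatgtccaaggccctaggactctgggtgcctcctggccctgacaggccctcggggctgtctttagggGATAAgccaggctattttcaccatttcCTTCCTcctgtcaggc
*Gp5*, chr16:30310782-30311031 (−): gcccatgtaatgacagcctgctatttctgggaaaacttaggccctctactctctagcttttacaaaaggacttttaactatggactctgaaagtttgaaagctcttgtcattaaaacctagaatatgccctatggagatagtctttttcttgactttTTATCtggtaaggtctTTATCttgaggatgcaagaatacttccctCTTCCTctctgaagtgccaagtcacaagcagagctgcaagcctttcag
*Pf4*, chr5:90772185-90772434 (+): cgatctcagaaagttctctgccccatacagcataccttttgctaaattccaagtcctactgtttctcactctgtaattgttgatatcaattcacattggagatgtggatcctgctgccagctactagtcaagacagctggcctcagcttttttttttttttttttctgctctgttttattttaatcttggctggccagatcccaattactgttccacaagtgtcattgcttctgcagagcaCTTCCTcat

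In *Gp1ba* and *Gp9* the AGGAAG match began 16 bases before the start, on the reverse strand. In *Pf4* it began 9 bases and in *Gp5* 48 bases before the start, also on the reverse strand. *Gp5* carried GATAA on the reverse strand at 93 and 77 bases before the start, *Gp1ba* at 103 bases on the forward and 51 bases on the reverse strand, and *Gp9* at 43 bases on the forward strand. AGGAAG was found in 5 of the 9 promoters, against 29.5% of 32851 RefSeq promoters of the same length, and GATAA in 4 of the 9, against 22.6%. Both were present in 3, against 6.58% of all promoters, and these are the 3 receptor genes shown. Neither was present in 3, which were *Gp1bb*, the receptor gene not shown, *Ppbp* and *Treml1*. The letters of the GATA motif were settled after the promoters of the members had been read. A longer form searched first, AGATAA, was present in 1 of the 9, against 9.99% of all promoters, so the count for the GATA family depends on that choice. The matches describe these letters and say nothing of binding.

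Each of the 9 genes had its highest level of all 19 plates on E8.5 plate 5. Of 11313 genes that reached 10 CPM on some E8.5 plate, 15.1% were highest on plate 5 among the 8 E8.5 plates, and 8 of the 9 members reached that level. For every member the counting interval of plate 5 lay apart from that of the plate that came next. The heat map of detection and the plot of levels by plate show this order for single genes.

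**Figure D1:**
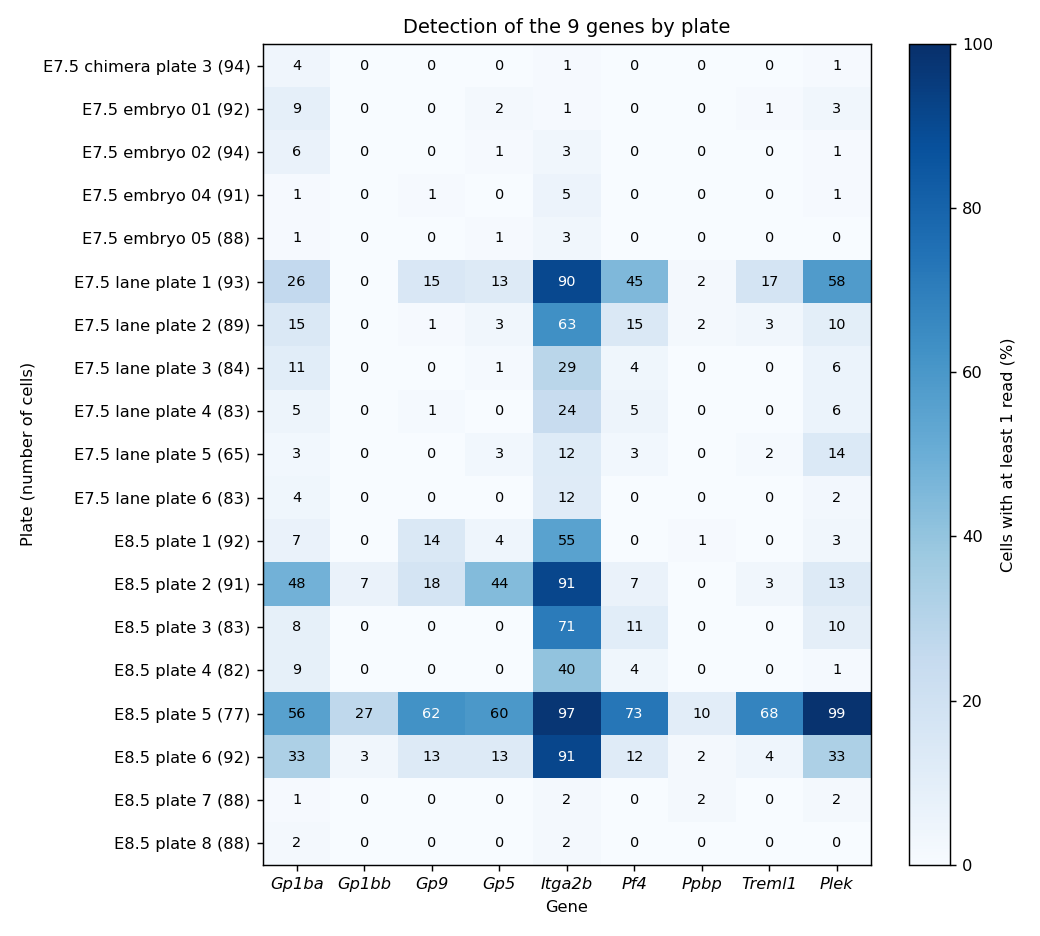
Percent of cells with at least 1 read of each of the 9 genes (columns) on each of the 19 plates (rows), as coloured and printed values. *Itga2b* was detected in 97.4% of plate 5 cells and in over 90% of cells on E8.5 plates 2 and 6 and on E7.5 lane plate 1, while *Gp1bb* and *Ppbp* stayed under 28% on every plate.

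Transcripts of the von Willebrand factor receptor were found in most but not all cells of plate 5. *Gp1ba*, on chromosome 11 at 70639122 to 70642036, encodes GPIbα, the chain that binds von Willebrand factor. It was detected in 55.8% of plate 5 cells (44.1 to 67.2), at a pooled 42.6 CPM (40.6 to 44.5), with a median of 3.42 CPM and a maximum of 553 CPM over cells. On plate 2 it was detected in 48.4% of cells (37.7 to 59.1) at 16.3 CPM. The shares of cells on plates 5 and 2 thus had overlapping intervals, while the pooled levels did not. Plate 6 followed with 32.6% of cells and 11.1 CPM, next to E7.5 lane plate 1 with 25.8% and 10.1 CPM, and the counting intervals of these last CPM values overlapped.

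*Gp9*, on chromosome 6 at 87778072 to 87779768, encodes GPIX, which the complex needs to reach the cell surface. It was detected in 62.3% of plate 5 cells (50.6 to 73.1) at 68.6 CPM (66.1 to 71.1). On plate 2 it was found in 17.6% of cells at 5.09 CPM and on E7.5 lane plate 1 in 15.1% at 11.7 CPM. Plates 6 and 1 had 3.01 and 2.90 CPM, with overlapping intervals. So *Gp9*, unlike *Gp1ba*, had shares of detecting cells on plates 5 and 2 whose intervals did not overlap.

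*Gp5*, on chromosome 16 at 30307685 to 30310779, encodes GPV, the subunit of the complex that thrombin cuts. It was detected in 59.7% of plate 5 cells (47.9 to 70.8) at 132 CPM (129 to 135). Plate 2 had 43.96% of cells (33.6 to 54.8) and 70.4 CPM. One cell held 53.5% of the plate 2 reads of this gene. Among the 45 plate 5 cells with 5 or more of the 9 genes, the largest share in one cell was 16.8%. Without that cell plate 2 was at 34.5 CPM. On plate 6 *Gp5* was detected in 13.04% of cells at 4.05 CPM.

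*Gp1bb*, on chromosome 16 at 18620317 to 18622403, encodes GPIbβ, the chain joined to GPIbα by disulphide bonds. It was found in 27.3% of plate 5 cells (17.7 to 38.6) at only 1.96 CPM (1.56 to 2.42), and only 2 cells had 10 or more reads. Its counts are uncertain, because 149 of its 2087 annotated exon bases (7.14%) are not shared with *Sept5* or *Gm49601* on the same strand, and how reads in shared bases were counted is not given in the sources used here. On plate 2 it was found in 6.59% of cells, on plate 6 in 3.26%, and on E7.5 lane plate 1 in 0 of 93 cells.

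*Itga2b* was the most widely detected of these genes. It was found in 97.4% of plate 5 cells (90.9 to 99.7) at 678 CPM (670 to 686), with a median cell at 392.02 CPM and a highest cell at 2401 CPM. The gene lies on chromosome 11 at 102453297 to 102470122. On plate 2 it was detected in 91.2% of cells at 266.7 CPM, on plate 6 in 91.3% at 216 CPM and on E7.5 lane plate 1 in 90.3% at 164 CPM. Plates 3, 4 and 1 had 71.1%, 40.2% and 55.4% of cells and 70.3, 57.6 and 43.99 CPM. The shares thus differed little among the 4 highest plates, and the levels differed.

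*Pf4* and *Ppbp* encode α-granule chemokines of platelets and lie side by side on chromosome 5, at 90772435 to 90773383 and 90768518 to 90770063. *Pf4* was detected in 72.7% of plate 5 cells (61.4 to 82.3) at 612 CPM (604 to 619), but the median cell was at 28.9 CPM and the highest at 18310 CPM. That cell alone held 42.2% of the reads. *Pf4* was at 158 CPM on E7.5 lane plate 1, in 45.2% of cells, and at no more than 2.76 CPM on any other blood plate. One cell held 53.4% of the lane plate 1 reads, and without it the level was 75.6 CPM. On plate 1 it was in 0 of 92 cells, which allows a share of up to 3.26%.

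*Ppbp* was found in 8 cells of plate 5, or 10.4% (4.59 to 19.5), at 37.1 CPM. One cell, the same that led for *Pf4*, held 80.4% of the reads. Without it, the pooled level of plate 5 was 359 CPM for *Pf4* and 7.37 CPM for *Ppbp*. Of all other plates, E8.5 plate 7 and E7.5 lane plate 2 had the most *Ppbp*, at 0.900 and 0.875 CPM, with overlapping intervals.

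*Treml1*, on chromosome 17 at 48359916 to 48367176, encodes a receptor stored in the α-granule membrane of platelets. It was detected in 67.5% of plate 5 cells (55.9 to 77.8) at 131 CPM, against 3.30% of cells on plate 2, 4.35% on plate 6 and 17.2% on E7.5 lane plate 1, at 0.724, 1.04 and 13.9 CPM. Of the membrane proteins it had the widest gap between plate 5 and the other blood plates.

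*Plek*, on chromosome 11 at 16971206 to 17052381, encodes pleckstrin, a protein kinase C substrate that leukocytes also contain. It was detected in 98.7% of plate 5 cells (92.98 to 99.97) at 710 CPM, with the median cell at 517 CPM. On E7.5 lane plate 1 it was in 58.1% of cells at 288 CPM, and on plates 6 and 2 in 32.6% and 13.2% at 40.4 and 33.5 CPM. One cell held 67.2% of the plate 2 reads, and the level without it was 11.6 CPM. Immune markers were also higher on plate 5: 7 of 9 were at least 4 times their level on the other blood plates, against 2.63% of all genes. In the immune range described further on were 60 of the 77 plate 5 cells. There were 31 of 92 on plate 6, 5 of 83 on plate 3 and 0 on plates 1, 2 and 4. The part of immune cells in the *Plek* level was not tested.

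**Figure D2:**
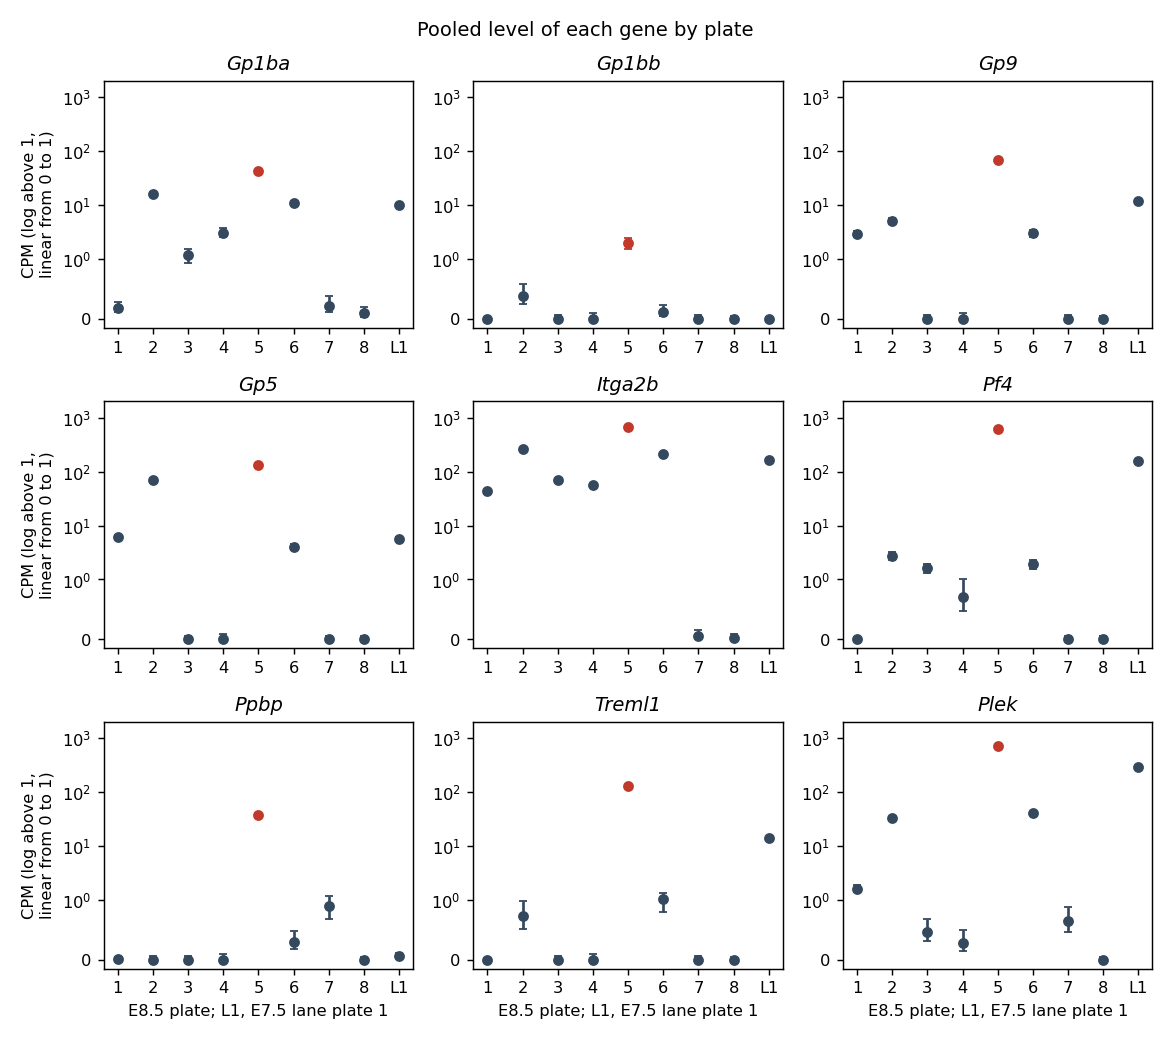
Pooled CPM (symmetric log axis) of the 9 genes, 1 panel each, on the 8 E8.5 plates and E7.5 lane plate 1 (L1), with exact Poisson 95% intervals and plate 5 in red. Plate 5 is the highest point in every panel, at 612 CPM for *Pf4* against 158 CPM on L1, and the points of plates 7 and 8 lie at or near 0.

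The pooled comparison gave the largest differences to *Pf4* and *Treml1*. On the log2 scale with 1 CPM added to both sides, plate 5 stood above the other blood plates by 8.10 for *Pf4* (612 against 1.23 CPM), which ranked 1 of 9488 genes with at least 10 CPM on either side. *Treml1* differed by 6.63 (rank 4), *Plek* by 5.54 (rank 11) and *Ppbp* by 5.16 (rank 18). *Gp9* differed by 4.35 (rank 33), *Gp5* by 3.04, *Gp1ba* by 2.71 and *Itga2b* by 2.46. *Gp1bb* reached too few reads to be ranked and differed by 1.44. The median of the 9 differences was 4.35, against 0.01 over all genes compared.

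All 8 members that could be compared were at least 4 times higher on plate 5, against 2.63% of all genes. On the other blood plates *Pf4*, *Ppbp*, *Gp1ba*, *Gp9* and *Treml1* were under 10 CPM. They were compared only through their level on plate 5. *Gp1bb*, the member not compared, was under 10 CPM on both sides and less than 4 times higher. The members were also chosen with earlier results of these data in view, so the count of 8 is a description. Leaving out the cell with most *Pf4* reads left 7, since *Ppbp* then fell under 10 CPM. Against single plates, 8 members passed over plate 1 (7.98% of all genes), plate 3 (3.94%) and plate 4 (4.82%). Over plate 2, 5 passed (6.46%), and *Itga2b*, *Gp1ba* and *Gp5* were higher by only 1.34, 1.33 and 0.90, the last being 1.91 without the plate 2 cell with most *Gp5* reads. Over plate 6, 6 of 8 passed (2.49%), and *Gp1ba* and *Itga2b* were higher by 1.85 and 1.64.

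E7.5 lane plate 1 came next to plate 5 for *Pf4*, *Plek*, *Treml1* and *Gp9*. Against the other 5 lane plates pooled, 4 of 6 members with enough reads were at least 4 times higher, against 2.78% of all genes. These were *Plek* (5.60 on the log2 scale), *Pf4* (4.67, and 3.62 without the cell with most reads), *Treml1* (3.74) and *Gp9* (3.57), while *Itga2b* and *Gp1ba* differed by 1.78 and 1.18. Of the 6, only *Itga2b* had 10 CPM or more on the other lane plates. The rest were compared only through their level on lane plate 1. Lane plate 2 had *Itga2b* in 62.9% of cells at 136 CPM and *Pf4* in 14.6% at 14.5 CPM.

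Members were found together in single cells of plate 5. Every one of the 77 cells had at least 2 of the 9 genes, and the median was 6. There were 45 cells with 5 or more (58.4%, 46.6 to 69.6) and 19 with 8 or more. On the other blood plates 13 of 440 cells had 5 or more (2.95%, 1.58 to 4.999). Of these, 7 were on plate 2 and 6 on plate 6. E7.5 lane plate 1 had 12 of 93 cells (12.9%) and lane plate 2 had 3 of 89 (3.37%), so that 28 of 1572 cells outside plate 5 reached 5 genes (1.78%). When each cell was thinned to 100000 reads, the share was 53.2% on plate 5, 1.14% on the other blood plates and 12.9% on lane plate 1.

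**Figure D3:**
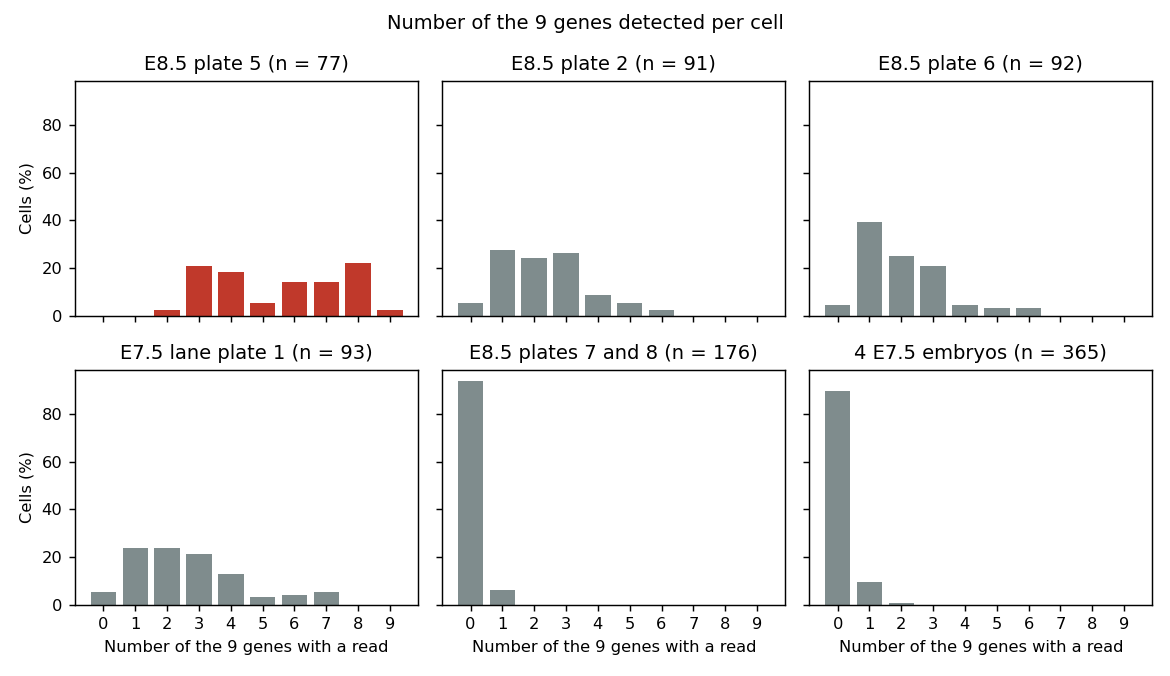
Percent of cells (bars) by number of the 9 genes detected, with at least 1 read each, in 6 sets of cells. Plate 5 is spread from 2 to 9 genes with a median of 6, while the medians of plates 1 to 4 and 6 are 2 or lower.

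The number of genes per cell on plate 5 was not spread evenly. It was 3 in 16 cells, 4 in 14, 5 in 4, 6 in 11, 7 in 11 and 8 in 17 cells, with 2 cells each at 2 and at 9 genes. The 4 receptor genes were all detected in 19 cells (24.7%), and none of them in 17 (22.1%). *Gp1ba*, *Gp9* and *Gp5* were found together in 31 cells of plate 5 (40.3%), against 12 of 440 on the other blood plates (2.73%), 7 of them on plate 2 and 4 on plate 6. *Gp1bb* was found in 21 cells, all of which also had *Gp9* and *Treml1*. Of these, 20 had *Gp5*, 20 had *Gp1ba* and 19 had both.

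Across the 77 cells, log2(CPM + 1) of *Gp5* and *Treml1* had a Pearson correlation of 0.78. Both were detected in 43 cells, one of them in 12 and neither in 22. Among *Gp1ba*, *Gp9*, *Gp5* and *Treml1* the pairs lay between 0.57 and 0.78. *Pf4* had correlations of 0.15 to 0.50 with all members but *Ppbp*, and those of *Ppbp* ran from -0.01 to 0.24. Against the mean of the other members, *Gp5* stood at 0.80, *Treml1* at 0.79, *Gp1ba* at 0.74, *Gp9* at 0.72, *Itga2b* at 0.46 and *Ppbp* at 0.18. These correlations describe cells of 1 plate, which share library preparation and differ in depth, and the number of reads per cell had one of -0.13 with the mean of all members.

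The members were also set against regulators of blood cells in the same cells. Over the 77 cells the mean of the members had a correlation of 0.75 with *Gata1* and 0.74 with *Itgb3*, the integrin partner of *Itga2b*. It was -0.63 with *Spi1*, a regulator of myeloid cells, and -0.75 with *Cd34*, a progenitor surface protein. At a cut of 100 CPM, chosen after these values had been seen, 33 cells had *Gata1* only, 29 had *Spi1* only, 3 had both and 12 had neither. Between 50 and 200 CPM, and so near the cut, lay 5 cells for *Gata1* and 16 for *Spi1*.

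The 33 cells with *Gata1* held a median of 7 members (3 to 9), and 31 of them held 5 or more. The 29 cells with *Spi1* held a median of 4 (2 to 6), and 6 of them held 5 or more. Median reads per cell were 408146 with *Gata1* and 576137 with *Spi1*, and the part of depth was not tested. *Gp5* was detected in 93.9% against 24.1% of cells, with medians of 228 and 0 CPM, and *Treml1* in 93.9% against 31.03%, with medians of 236 and 0 CPM. *Gp1ba* was in 90.9% against 20.7%, *Gp9* in 87.9% against 34.5% and *Gp1bb* in 51.5% against 0%. The same cut on E7.5 lane plate 1 did not separate the number of members in this way. There, 52 cells with *Gata1* only held a median of 2 members, and 8 of them held 5 or more. The 16 cells with *Spi1* only held a median of 3, and 2 of them held 5 or more. The 2 plates differed in their cells: 53 of 93 on lane plate 1 were in the erythroid range described further on, against 9 of 77 on plate 5. Near the cut, between 50 and 200 CPM, lay 18 lane plate 1 cells for *Gata1* and 14 for *Spi1*. The part of erythroid cells in this contrast was not tested.

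*Itga2b* and *Plek* did not separate the cells by detection, being found in 100% and 96.6% for either gene, and differed by level. Their medians were 1043 against 278 CPM and 1234 against 270 CPM. *Pf4* was detected in 81.8% against 62.1% of cells with medians of 208 and 12.4 CPM, and *Ppbp* in 12.1% against 13.8%. In the cells with *Spi1*, *Cd34* had a median of 1027 CPM, against 0 in the cells with *Gata1*, and *Csf1r* was detected in 68.97% against 6.1%. Haemoglobin transcripts went the other way, with *Hbb-bh1* at a median of 3031 CPM in the cells with *Gata1* and 5.5 CPM in those with *Spi1*. Their part in the difference was not tested.

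**Figure D4:**
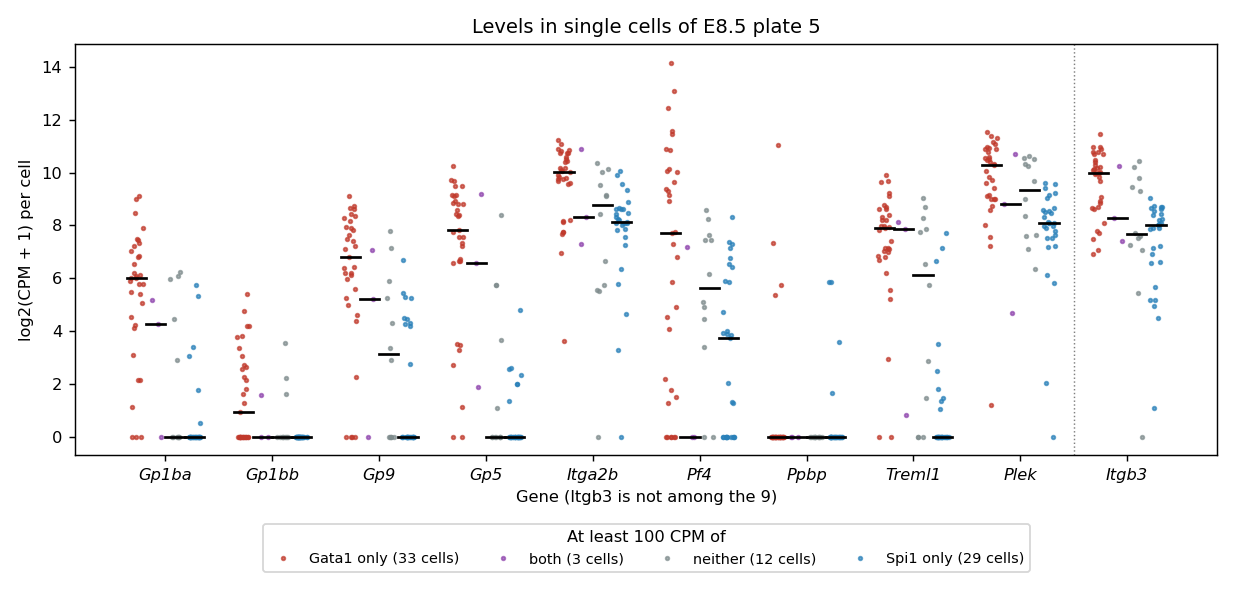
log2(CPM + 1) of the 9 genes and *Itgb3* in the 77 cells of E8.5 plate 5 (points), in cells with *Gata1* only (33), both (3), neither (12) or *Spi1* only (29) at 100 CPM or more, with medians as bars. *Gp5* and *Treml1* have medians of 228 and 236 CPM in the first set and 0 in the last, while *Plek* and *Itga2b* are present in nearly every cell of both.

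Levels can be set between genes only per length. In the 45 plate 5 cells with 5 or more members, *Pf4* had 1627 CPM per kilobase of exon, *Plek* 253, *Treml1* 180, *Itga2b* 179, *Gp9* 142, *Gp5* 117, *Ppbp* 66.6 and *Gp1ba* 29.1. *Gp1bb* had 1.83 over all exon bases, and 25.6 if all its reads are assigned to the 149 bases of its own. In these cells 1 cell held 42.8% of the *Pf4* reads, at 18310 CPM, and the next highest had 8779 CPM.

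Cells with 5 or more members outside plate 5 differed from one another in what else they held. On plate 2, 5 of the 7 had at least 10000 CPM of summed embryonic haemoglobin, none had 10 CPM of *Spi1*, and 5 had no read of *Treml1*. On plate 6, none of 6 had that much haemoglobin, all had *Gata1*, and 0 had *Spi1*. On E7.5 lane plate 1, 5 of 12 had the haemoglobin level, 10 had *Gata1* and 6 had *Spi1* at 10 CPM. On plate 5, 9 of 45 had the haemoglobin level, 39 had *Gata1*, 22 had *Spi1* and 45 had *Itgb3*. *Itgb3* reached 10 CPM in each of the 28 cells outside plate 5 as well.

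Other known megakaryocyte and platelet genes, in 5 lists, were compared in the same way. Of 53 with enough reads, 26 were at least 4 times higher on plate 5, where 2.63% of all genes were. None of the 53 was at least 4 times lower. The median difference of all 57 listed genes was 1.92 on the log2 scale. The limit of 10 CPM on either side bears on these counts. It left out *Itga2*, which differed by -2.59 (0.256 against 6.56 CPM). It let in *Gp6* through plate 5 alone (11.8 against 0.850 CPM). The share of all genes at least 4 times lower is not given here. Surface receptors passed in 6 of 14, among them *Itgb3* (3.57) and *F2rl2* (4.53), a thrombin receptor cofactor. Granule and secreted proteins passed in 6 of 11, led by *Thbs1* (5.09), the thrombospondin of α-granules, while *Vwf*, the ligand of the receptor above, differed by 1.36. The cytoskeletal and signalling genes passed in 9 of 14, with *Lat* (4.13) and *Bin2* (4.02) highest and *Tubb1*, the β-tubulin of platelets, at 3.18. Both eicosanoid enzymes compared passed, *Ptgs1* (3.98) and *Alox12* (3.62). Of the transcription factors 3 of 12 passed, *Mef2c* (2.26), *Meis1* (2.06) and *Runx1* (2.04), and *Gata1* differed by 0.43.

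The genes whose log2(CPM + 1) over the 77 cells was most like the mean of the members were drawn from 8408 genes. *Tubb1* led with a correlation of 0.90, then *Cavin2* (0.86), *Tgfb1i1* and *Slc14a1* (0.85), *F2rl2* (0.84), *Sptb* and *Mpig6b* (0.82), *Rabgap1l* (0.81), *Ank3* (0.80), and *Samd14* and *Timp3* (0.79). *Sptb*, which encodes β-spectrin, was lower on plate 5 than on the other blood plates, at -1.85 on the log2 scale. The others named here ranged from 1.23 to 4.53.

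Transcripts of the members in progenitors were sought among the 1572 cells outside plate 5, grouped by markers that include none of the 9 genes. Cells were placed in an erythroid range (213), then an immune range (78), then a progenitor range with *Runx1* and at least 2 other progenitor markers at 10 CPM (103), then an endothelial range (226), and the rest (952) gave the background. These are ranges and not cell types, and 141 cells had *Runx1* between 5 and 20 CPM, close to the limit. Immune-range medians of *Runx1*, *Kit* and *Cd34* were 135, 427 and 393 CPM, against 65.7, 86.2 and 0 in the progenitor range. *Lyl1* and *Myb* were also higher in the immune range, while *Gata2*, *Tal1* and *Lmo2* were not. *Tyrobp*, *Ptprc* and *Csf1r* had immune-range medians of 0. Since the immune range was filled first, cells with progenitor markers are missing from the progenitor-range shares.

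Of the 103 progenitor-range cells, 76.7% (67.3 to 84.5) had at least 1 of the 9 genes and 39.8% (30.3 to 49.9) had at least 2. In the cells without these markers the shares were 12.9% (10.9 to 15.2) and 1.05% (0.50 to 1.92), at median depths of 591302 and 668678 reads. With 10 reads required for detection the progenitor-range shares were 64.1% and 29.1% and the background shares 2.84% and 0.210%, and with cells thinned to 100000 reads the background was 6.20% and 0.315%. Endothelial-range cells had 72.6% and 20.4%, erythroid-range cells 88.3% and 50.2%, and immune-range cells 97.4% and 70.5%. Cells with 5 or more genes numbered 9 in the progenitor range (8.74%), 9 in the immune range (11.5%) and 10 in the erythroid range (4.69%). There were 0 of 226 endothelial-range cells, which allows 1.33%, and 0 of 952 others, which allows 0.315%.

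Single genes contributed unequally. In the progenitor range *Itga2b* was in 74.8% of cells, *Gp1ba* in 23.3%, *Plek* in 20.4%, *Pf4* and *Gp5* each in 15.5%, *Gp9* in 11.7%, and *Gp1bb* and *Treml1* each in 4.85%. *Ppbp* was in 0 of 103, which allows 2.91%. *Itga2b* was in 77 progenitor-range cells, and 79 had any of the 9 genes, so the share with at least 1 gene is nearly that of *Itga2b*. Pooled levels in this range were 168 CPM for *Itga2b*, 45.8 for *Plek* and 30.1 for *Gp5*, with the others under 10 CPM. The highest cells had 1217 CPM of *Plek* and 768 CPM of *Gp5*, so not every level was low. In the cells without these markers *Itga2b* was in 5.25%, *Gp1ba* in 3.36%, *Plek* in 3.05% and *Pf4* in 0.735%. Endothelial-range cells had *Itga2b* in 67.3%, *Gp1ba* in 13.3% and *Pf4* in 9.73%, and no read of *Gp5*, *Treml1* or *Gp1bb* in 226 cells.

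The share with 2 or more members was 22.8% of 57 progenitor-range cells at E7.5 and 60.9% of 46 at E8.5. Of those 46 cells, 31 came from plate 6, of which 21 had 2 or more. The rest were on E8.5 plates 2, 3 and 4, where 5 of 8, 1 of 3 and 1 of 4 cells had 2 or more. Over both stages together the share was 39.8% with plate 6 and 27.8% without it. None of the 22 progenitor-range cells of the 4 named E7.5 embryos had 2 members, whereas 4 of 4 on E7.5 lane plate 1 did. Stage, plate and gate therefore cannot be told apart here, and neither can genotype, which the labels do not give. *Pf4* was found in 61.9% of immune-range cells at E7.5 and in 2.78% at E8.5 outside plate 5, and in 73.3% of the 60 immune-range cells on plate 5.

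**Figure D5:**
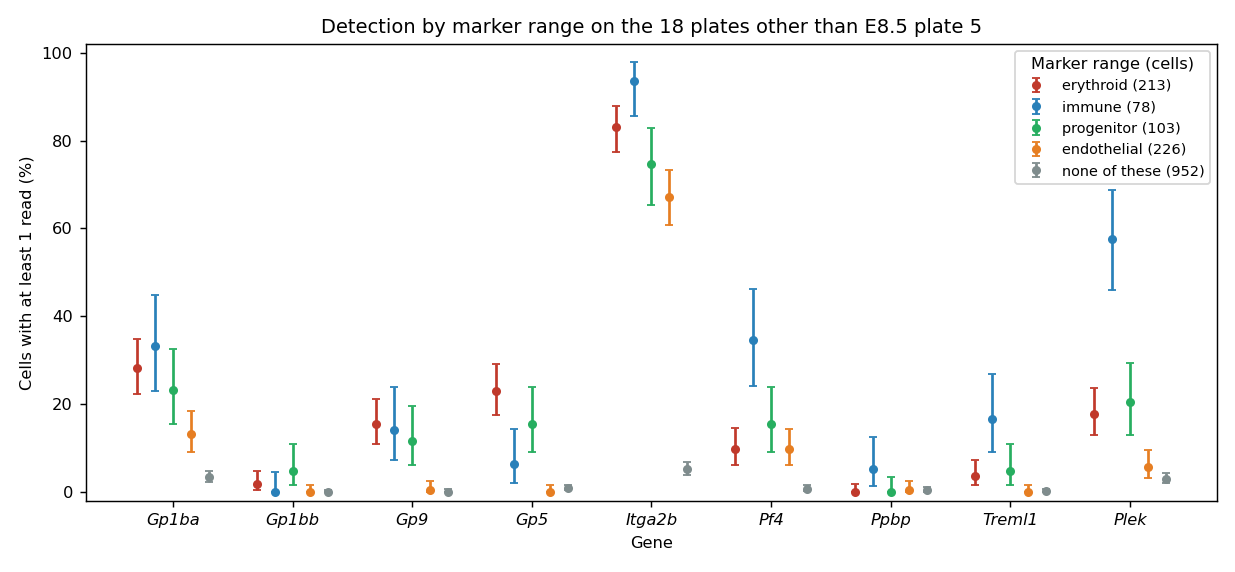
Percent of cells with each of the 9 genes detected, with Clopper-Pearson 95% intervals, by marker range in the 1572 cells outside E8.5 plate 5. *Itga2b* reaches 74.8% in the progenitor range and 5.25% in the cells without these markers.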

How the data were processed

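RNA was measured in single cells of chimaeric embryos. The series text names scNMT-seq and scM&T-seq, which pair the transcriptome with DNA methylation of the same cell, whereas the study describes RNA sequencing alone for part of the cells, and the labels do not say for which. The authors deposited one table of raw counts per gene and cell, not normalized. The submitters' processing notes name HISAT2 2.1.0, featureCounts and build GRCm38, while the strand and multimapping settings are not given in the sources used here. Identifiers were matched to symbols with GENCODE release M21, which also gave positions and exon lengths, for 55141 of 55487 genes. Cells with at least 100000 reads were kept, and no doublet caller was run. No column lacked a sample (0 columns).

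CPM was computed from summed counts of a plate or from the counts of a cell. Ratios added 1 CPM to both sides, and genes with at least 10 CPM on either side were compared, at least 4 times being called. Cells are not replicates, so no test was run and the count models edgeR and DESeq2 gave scaling factors only. All 9 members, the 5 lists and the 12 genes most like the members on plate 5 were to be named by rule, and some genes among these are not reported here. The members and lists were chosen with earlier results of these data known. Markers fixed for each cell type are the erythroid, endothelial, progenitor and immune lists. Alternatives covered detection limits, read minimum, thinning, scaling, pseudocount, filters and each plate left out. Promoters came from the RefSeq table. Python 3.11.15, numpy 2.4.6, pandas 2.3.3, scipy 1.17.1, matplotlib 3.10.9, R 4.3.3, edgeR 4.0.16 and DESeq2 1.42.0 were used.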

Additional observations from a re-analysis of the deposited data

Results flagged for a closer look

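Among the 4 embryos that the E7.5 labels name, 19 values per embryo were compared and 13 were above 0 in some embryo. In 4 of them, which are 2 genes each counted as CPM and as percent of cells, one embryo stood apart from the others by its gap to the nearest. Chance gives this in about 1 in 20 groups of varied values, but that rate does not hold here, since any gene read in a single embryo stands apart in this way. *Gp9* was at 0.0335 CPM in embryo 04, in 1.10% of its cells, and *Treml1* at 0.343 CPM in embryo 01, in 1.09% of its cells. Each rests on 1 cell, and the other 3 embryos had no read of the gene.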

How the results depend on the processing

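No log2 difference of a member between plate 5 and the other blood plates changed sign, the lowest being 0.45 for *Gp1bb*. Shares and counts have no sign to reverse. Of the values under alternatives, 146 that answer a comparison were counted as unchanged and 20 as moved. For single genes the counts were 149 and 13. The spread allowed for log2 differences was the standard deviation over plates, 2.54 for *Gp5* and 2.48 for *Plek*. E8.5 plates 1, 7 and 8 and E7.5 lane plate 5 held 0 progenitor-range cells. Leaving these out could not move the progenitor-range shares, so the number unchanged does not measure stability. With 10 reads required for detection, the share of plate 5 cells with 5 or more genes was 44.2% instead of 58.4%, that of the other blood plates 0.909%, the progenitor-range shares 64.1% and 29.1%, and the background shares 2.84% and 0.210%. With 10 CPM required, the other blood plates had 0.909% and the background 3.36% and 0.210%. Thinned to 100000 reads, the other blood plates had 1.14% and the background 6.20% and 0.315%. With 3 genes as the limit 97.4% of plate 5 cells passed, and with 7 genes 38.96%. With markers at 30 CPM the progenitor-range share with 1 gene was 84.6%. The percent of all genes at least 4 times higher was 1.62 with a pseudocount of 5 CPM, 1.04 over genes with any read and 6.76 at 2 times. Leaving out 1 plate at a time, the number of members called stayed at 8, the percent of all genes called ranged from 2.18 to 3.22, and the share of other blood plate cells with 5 or more genes from 1.72% without plate 2 to 3.74% without plate 1. The progenitor-range shares ranged from 66.7% to 80.2% and from 27.8% to 43.2%, lowest without E8.5 plate 6, and the background shares from 11.4% to 13.8% and from 0.846% to 1.16%. Against plate 6 alone 6 members were called. Leaving out the cell with most *Pf4* reads, chosen after seeing the data, left 7. So were the levels without the cell with most reads of *Pf4* on E7.5 lane plate 1 (75.6 CPM), and of *Gp5* (34.5 CPM) and *Plek* (11.6 CPM) on E8.5 plate 2. The cause of these shifts was not tested. No paired analysis was possible because the plates carry no replicate number shared between groups and no result comes from a test.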
